A study of Mus musculus with 4 samples.

Results

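The genes examined here are those by which cells cut proteins into peptides and display them to T cells, together with costimulatory ligands and markers of dendritic cells. The list held 38 genes: 9 class II genes, 5 class I chains, 10 genes that supply peptides to class I, 2 class I-like molecules, 6 costimulatory or co-inhibitory ligands and 6 dendritic cell markers. They were taken by name, and each was read from the brightest probe whose accession maps to it. A probe was found for 37 of the 38, out of 20802 genes named on the array. The exception was Itgae, the integrin of one subset of lung dendritic cells, which had no matched probe. All 37 were well above background on all 4 arrays, and all 37 were among the 15422 genes tested.

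The arrays measured RNA of bronchoalveolar lavage fluid (BALF) cells, the cells rinsed from the airspaces of the lung. Wild-type and S1pr2-/- littermates, bred from heterozygous parents on a mixed strain background, had received repeated injections of bleomycin, which injures the lung and leads to fibrosis, into the peritoneum at 0.035 U/g, 2 times a week, and cells were collected on day 22. Both genotypes were given the drug and neither had a saline array, so each difference below is one between genotypes under bleomycin. Each genotype had 2 one-color arrays of 200 ng total RNA. The S1pr2-/- mice lack sphingosine-1-phosphate receptor 2 in every cell from birth, and how many mice contributed to an array is not given in the sources used here. The labels call the material alveolar macrophages, while the extraction protocol names BALF cells without a purification step.

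Values are log2 of the processed signal over the 75th percentile of the array, and a difference is the S1pr2-/- mean minus the wild-type mean on that scale. The probe for S1pr2 itself went against the genotype labels. It read -0.13 and -0.16 in wild-type and 2.67 and 2.54 under the S1pr2-/- label, 6.72-fold higher on the latter (limma, unadjusted p = 1.88e-05, adjusted p = 0.333). Where this probe lies relative to the disrupted stretch of the gene is not given in the sources used here, and a probe outside that stretch would not check the label. Directions below are therefore those of the arrays labelled S1pr2-/-. Across all 27159 probes, 0 (0%) passed an adjusted p under 0.05 in limma, while 1518 were lower and 1083 higher at an unadjusted p under 0.05, so no single gene below passed the test over all probes. The arrays of one genotype differed by 0.209 (wild-type) and 0.199 (S1pr2-/-) in the mean absolute log2 value over probes.

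Class I molecules present peptides made in the cytosol to CD8 T cells. The proteasome cuts the peptides, the TAP transporter carries them into the endoplasmic reticulum, tapasin and ERAP1 help load and trim them, and a heavy chain paired with beta-2-microglobulin takes them to the surface. Class II molecules present peptides of engulfed material to CD4 T cells, with the invariant chain Cd74 guarding the groove and H2-DM exchanging the peptide. Class II is made constitutively by dendritic cells, B cells and some macrophages, and interferon-gamma, through the transactivators CIITA for class II and NLRC5 for class I, raises both. Alveolar macrophages are the main resident cells of the airspace, and dendritic cells carry antigen from the lung to lymph nodes.

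The promoters of class II genes are known for a shared layout, an X box followed at a fixed distance by an inverted CCAAT box, on which CIITA assembles, and class I promoters for a related module together with a kappa B site. The 100 bases before the start sites of 5 class II members and of Mr1 are shown because H2-DMb1, H2-Oa and Mr1 gave separated arrays below while H2-Aa, H2-Eb1 and H2-Ob did not. Sequences are those of RefSeq on GRCm38.p6, read 5′ to 3′ along the gene, and matches on either strand are in capitals. Marked are the core AACNNATGA of the X box. Marked too is the CCAAT box, which reads ATTGG when inverted. The third motif is the cyclic AMP response element core, TGACG.
H2-Aa (chr17:34287824-34287923, minus strand): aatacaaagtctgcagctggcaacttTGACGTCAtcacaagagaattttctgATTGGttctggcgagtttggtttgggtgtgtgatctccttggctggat
H2-Eb1 (chr17:34305767-34305866, plus strand): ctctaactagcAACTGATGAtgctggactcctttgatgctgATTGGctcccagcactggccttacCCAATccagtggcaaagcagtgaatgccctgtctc
H2-DMb1 (chr17:34153091-34153190, plus strand): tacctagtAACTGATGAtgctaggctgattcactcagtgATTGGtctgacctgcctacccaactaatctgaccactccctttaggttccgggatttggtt
H2-Ob (chr17:34238805-34238904, plus strand): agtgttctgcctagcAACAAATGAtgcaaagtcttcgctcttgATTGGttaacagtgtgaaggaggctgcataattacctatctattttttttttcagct
H2-Oa (chr17:34092279-34092378, plus strand): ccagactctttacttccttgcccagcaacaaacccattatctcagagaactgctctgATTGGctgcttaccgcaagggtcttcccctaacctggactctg
Mr1 (chr1:155146815-155146914, minus strand): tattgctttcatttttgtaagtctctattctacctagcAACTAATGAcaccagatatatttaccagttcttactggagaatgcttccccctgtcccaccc

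Counted back from the start site, the inverted CCAAT box began between positions -61 and -43 in all 5 class II stretches (-48 in H2-Aa, -59 in H2-Eb1, -61 in H2-DMb1, -57 in H2-Ob and -43 in H2-Oa). The X box core AACNNATGA was in H2-Eb1, H2-DMb1, H2-Ob and Mr1, and in no other of the 32 promoters matched to 29 members. In H2-Aa the palindrome TGACGTCA, which holds TGACG on both strands, lies upstream of the CCAAT box. Of all 32851 promoters in the table, 33.8% held CCAAT, 17.8% TGACG and 2.49% AACNNATGA on either strand in the 250 bases before the start. CCAAT was in 6 of 7 class II promoters and in 6 of 6 promoters of the class I chains. The X box core was chosen after these promoter letters were read, so its count beside 2.49% is not a test. A match is a description of letters and not a site shown to be bound.

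The class I side is shown by the promoters of H2-K1 and B2m, the genes of a heavy chain and of the light chain that it needs, and by the stretch between Tap1 and Psmb9, which are transcribed away from each other from opposite ends of it. Capitals mark the kappa B site GGGATTCCC in H2-K1, the interferon response core GAAANNGAA in B2m, and the CCAAT box and TGACG in all 3.
H2-K1 (chr17:34000348-34000467, minus strand): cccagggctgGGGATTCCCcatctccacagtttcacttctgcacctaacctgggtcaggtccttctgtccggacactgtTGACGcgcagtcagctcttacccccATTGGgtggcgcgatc
B2m (chr2:122147537-122147686, plus strand): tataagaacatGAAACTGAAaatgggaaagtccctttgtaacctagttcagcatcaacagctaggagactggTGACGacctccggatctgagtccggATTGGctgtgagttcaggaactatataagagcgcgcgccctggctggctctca
Tap1 (chr17:34187331-34187555, plus strand): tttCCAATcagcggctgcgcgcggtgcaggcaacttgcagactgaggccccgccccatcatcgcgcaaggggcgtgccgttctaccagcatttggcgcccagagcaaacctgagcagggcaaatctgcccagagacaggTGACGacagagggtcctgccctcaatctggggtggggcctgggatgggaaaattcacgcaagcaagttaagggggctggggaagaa

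GGGATTCCC was in 3 of the 6 promoters of the class I chains (both starts of H2-K1, and H2-D1) and in that of Pdcd1lg2, against 0.301% of all promoters. TGACG was in 5 of the 6. GAAANNGAA was in 4 of the 32 member promoters (B2m, H2-T23, Erap1 and Cd274) and in 7.13% of all promoters, and the activated site TTCNNNGAA was in 3 (Batf3, Psmb8 and H2-M3), against 7.02% of all. Of the 4 members with the X box core, H2-DMb1, H2-Eb1 and H2-Ob had differences between genotypes of -0.31, -0.13 and -0.11, and Mr1 of 0.37. The arrays of H2-Eb1 and H2-Ob overlapped. Mr1 held no CCAAT box, and H2-Oa, with a CCAAT box but no X box core, had a difference of 0.25. Any link between these motifs and the direction of a difference was not tested.

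Most differences in the set were small, as they were over all genes. Of the 37 genes, 24 (64.9%) differed by less than 0.2 on the log2 scale, beside 70.7% of all genes tested, and 0 differed by 2-fold, which 265 of the 15422 genes did. The differences ran from -0.83 (Batf3) to 0.49 (Cd209a), with a median of -0.03 beside 0 for all genes. At an unadjusted p under 0.05 in limma, 5 members (13.5%) were lower on the arrays labelled S1pr2-/-, Nlrc5, Tap2, H2-DMb1, Pdcd1lg2 and Batf3, beside 5.95% of all genes. One member, Mr1, was higher (2.7%), beside 4.55% of all genes. Both S1pr2-/- arrays lay below both wild-type arrays for 11 members, beside 21.9% of all genes, and above both for 7, beside 22.2%, and the arrays overlapped for 19.

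**Figure D1:**
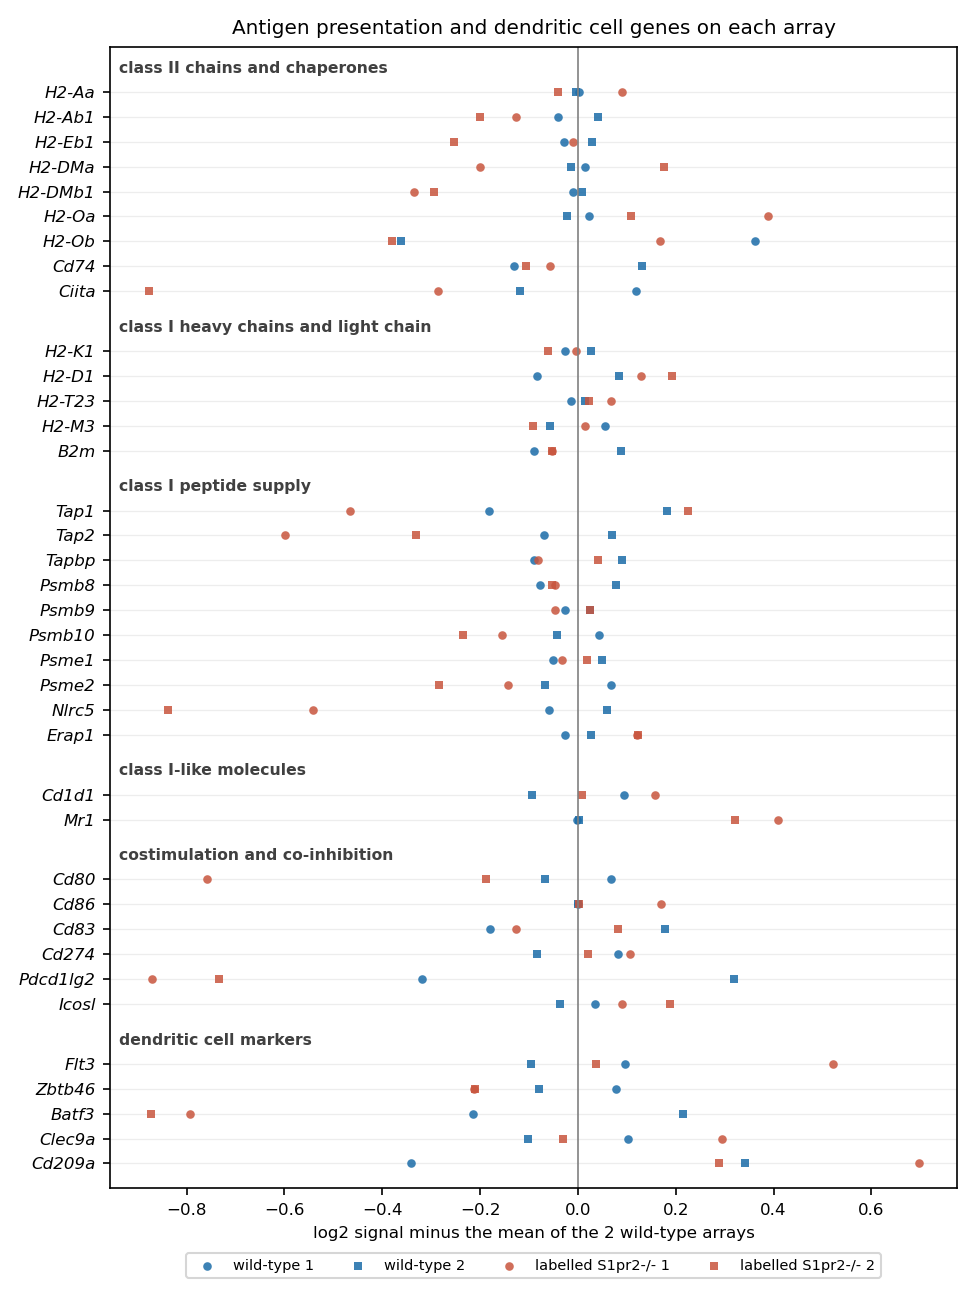
Log2 signal of each of the 37 members on each array, minus the mean of the 2 wild-type arrays for that gene (x axis, log2 units), grouped by role. Blue points are wild-type and red points S1pr2-/- by label, circles replicate 1 and squares replicate 2. Most points lie within 0.2 of 0, and both red points of Nlrc5, Pdcd1lg2 and Batf3, with 1 red point each of Ciita, Tap2 and Cd80, lie more than 0.5 to the left.

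The chains of the class II molecule itself differed little. H2-Aa, the alpha chain of I-A, read 3.35 and 3.35 in wild-type and 3.44 and 3.31 under the S1pr2-/- label. H2-Ab1, its beta chain, read 7.08 and 7.16 against 6.99 and 6.92, and H2-Eb1, the beta chain of I-E, read 6.54 and 6.60 against 6.56 and 6.32. The arrays of H2-Aa and H2-Eb1 overlapped. Those of H2-Ab1 were separated by a small step in one direction, with a difference of -0.16 (95% interval -0.37 to 0.05, limma, adjusted p = 0.555), and its other probe gave -0.09. The intervals for H2-Aa (-0.20 to 0.25) and H2-Eb1 (-0.47 to 0.21) left out a change of 1 log2 unit, that is, of 2-fold, in either direction.

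Of the helpers of class II loading, 1 was separated between the genotypes and 2 were not. Cd74, the invariant chain, read 6.04 and 6.30 against 6.12 and 6.07, and H2-DMa read 2.999 and 2.97 against 2.78 and 3.16, both overlapping. H2-DMb1, the partner of H2-DMa in the peptide exchanger, read 4.92 and 4.94 against 4.59 and 4.63. It was the member of this group with the clearest separation, 1.24-fold lower on the arrays labelled S1pr2-/- (log2 difference -0.31 ± 0.06, SE; limma, unadjusted p = 0.00887, adjusted p = 0.509).

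H2-Oa and H2-Ob form H2-O, which restrains H2-DM and is known chiefly from B cells. H2-Oa read 0.20 and 0.15 in wild-type and 0.56 and 0.28 under the S1pr2-/- label, a difference of 0.25 (95% interval -0.12 to 0.62). H2-Ob read -0.85 and -1.57 against -1.04 and -1.59. H2-Ob was thus higher on replicate 1 than on replicate 2 of either genotype, and so was the summed level of 10 B cell markers, at 9.63 and 6.11 times the 75th percentile in wild-type and 8.77 and 6.45 under the S1pr2-/- label. The part of B cells in the values of H2-Ob was not tested.

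Ciita, the transactivator of class II genes, read -1.81 and -2.05 in wild-type and -2.22 and -2.81 under the S1pr2-/- label. Both of the latter were below both of the former, and the gap between the 2 S1pr2-/- arrays, 0.59, was as wide as the difference between genotypes (-0.58 ± 0.25, SE; limma, unadjusted p = 0.0985, adjusted p = 0.561). A list of 15 other class II genes was fixed (regulators of the promoter, proteases and further chains), with a median of 0.11. At an unadjusted p under 0.05, 1 of them was lower and 1 higher. That was 6.67% each way, beside 5.95% and 4.55% of all genes. The lower one was H2-Eb2, a further beta chain of the I-E family, at -2.05 and -2.02 against -2.30 and -2.42. The higher one was H2-DMb2, the neighbouring copy of H2-DMb1, at -2.68 and -2.78 against -2.31 and -2.50. The copies H2-DMb1 and H2-DMb2 thus read in opposite directions, at -0.31 and 0.33. They are close in sequence, and the probe sequences were not used here, so how far each probe reads its own copy was not tested.

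The class I chains were the least different group: all 5 lay within 0.2 of 0, with a median of -0.03 and a range from -0.05 to 0.16. H2-K1, a classical heavy chain, read 6.86 and 6.91 in wild-type and 6.88 and 6.83 under the S1pr2-/- label (difference -0.03, 95% interval -0.22 to 0.16). Its other probe gave 0.06, with the opposite sign. B2m, the light chain, read 6.75 and 6.93 against 6.79 and 6.79 (difference -0.05, 95% interval -0.32 to 0.21). H2-M3, which presents bacterial formylated peptides, read 1.85 and 1.74 against 1.81 and 1.70.

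H2-D1, the other classical heavy chain, read 6.10 and 6.27 against 6.31 and 6.38, a difference of 0.16 (95% interval -0.11 to 0.43). H2-T23, the Qa-1 chain that NK cell receptors read, was at 5.69 and 5.72 against 5.77 and 5.73. For both, the 2 arrays labelled S1pr2-/- lay above the wild-type arrays, by steps no wider than the gaps between replicates. Class I heavy chains are a family of near-identical genes, so a probe may read more than the gene it is named for.

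Of the 10 genes that supply peptides to class I, 7 (70%) lay within 0.2 of 0, beside 70.7% of all genes. In the mean 9 were lower and 1 higher. On both arrays labelled S1pr2-/-, 4 were lower and 1 higher, beside 21.9% and 22.2% of all genes. At an unadjusted p under 0.05 in limma, 2 were lower (20%, beside 5.95% of all genes) and 0 higher. Psmb8, Psmb9 and Psmb10 are the catalytic subunits that turn the proteasome into the immunoproteasome, and Psme1 and Psme2 are the PA28 cap that opens it. Psmb8 read 3.42 and 3.58 against 3.45 and 3.45, and Psmb9 read 3.15 and 3.20 against 3.13 and 3.20. Psme1 read 3.57 and 3.67 against 3.59 and 3.64. These 3 overlapped, and their intervals lay within 0.3 of 0.

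Psmb10 read 5.08 and 4.995 against 4.88 and 4.80, and Psme2 read 5.62 and 5.48 against 5.41 and 5.27. On these 2 probes the 2 S1pr2-/- readings sat below the wild-type ones, by 0.20 and 0.21 on the log2 scale, with unadjusted p-values of 0.0633 and 0.0978 in limma. The other probe of Psme2 gave -0.09. Tapbp, which is tapasin, read 3.102 and 3.28 against 3.11 and 3.23, and Erap1, the trimming peptidase, read -1.96 and -1.90 against -1.81 and -1.81. Tapbp overlapped, and Erap1 was higher by 0.12 (95% interval -0.05 to 0.30).

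The partners of the TAP transporter differed in how well they could be read. Tap2 was at 3.33 and 3.47 in wild-type and at 2.80 and 3.07 under the S1pr2-/- label, 1.38-fold lower on the latter (log2 difference -0.46 ± 0.13, SE; limma, unadjusted p = 0.032, adjusted p = 0.515). Tap1 was at -1.84 and -1.47 against -2.12 and -1.43, so its arrays overlapped, and its 95% interval of -1.06 to 0.82 held both the value of Tap2 and 0. The unadjusted p of Tap2 in limma was 0.0862 and 0.144 without the first and the second wild-type array, and 0.084 without the first S1pr2-/- array. In such fits 1 genotype has a single array, and the spread comes from the other genotype.

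Nlrc5, the transactivator of class I genes, showed the largest difference of this group. It read 1.83 and 1.95 in wild-type and 1.35 and 1.05 under the S1pr2-/- label, 1.61-fold lower on the latter (log2 difference -0.69 ± 0.14, SE; limma, unadjusted p = 0.0118, adjusted p = 0.509). The genotypes were separated by more than the gap within either, and the unadjusted p was 0.054 and 0.0746 without the first and the second wild-type array. A dimmer probe of Nlrc5 read -4.98 and -4.87 against -5.04 and -5.14, in the same direction but by -0.16. The genes that NLRC5 is known to act on, H2-K1, H2-D1, B2m, Tap1 and Psmb9, had differences from -0.12 to 0.16.

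Among 15 other class I genes tested of a list of 20, 1 was lower (6.67%) and 0 were higher at an unadjusted p under 0.05. The shares over all genes were 5.95% and 4.55%, and the median of the list was -0.01. The lower one was H2-T24, a non-classical heavy chain, at -1.14 and -1.45 against -2.25 and -2.12 (log2 difference -0.90 ± 0.14, SE; limma, unadjusted p = 0.00601, adjusted p = 0.509). The next largest difference in that list was -0.22, for H2-Q4. On both arrays labelled S1pr2-/-, 7 of the 15 were lower and 3 higher, beside 21.9% and 22.2% of all genes.

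**Figure D2:**
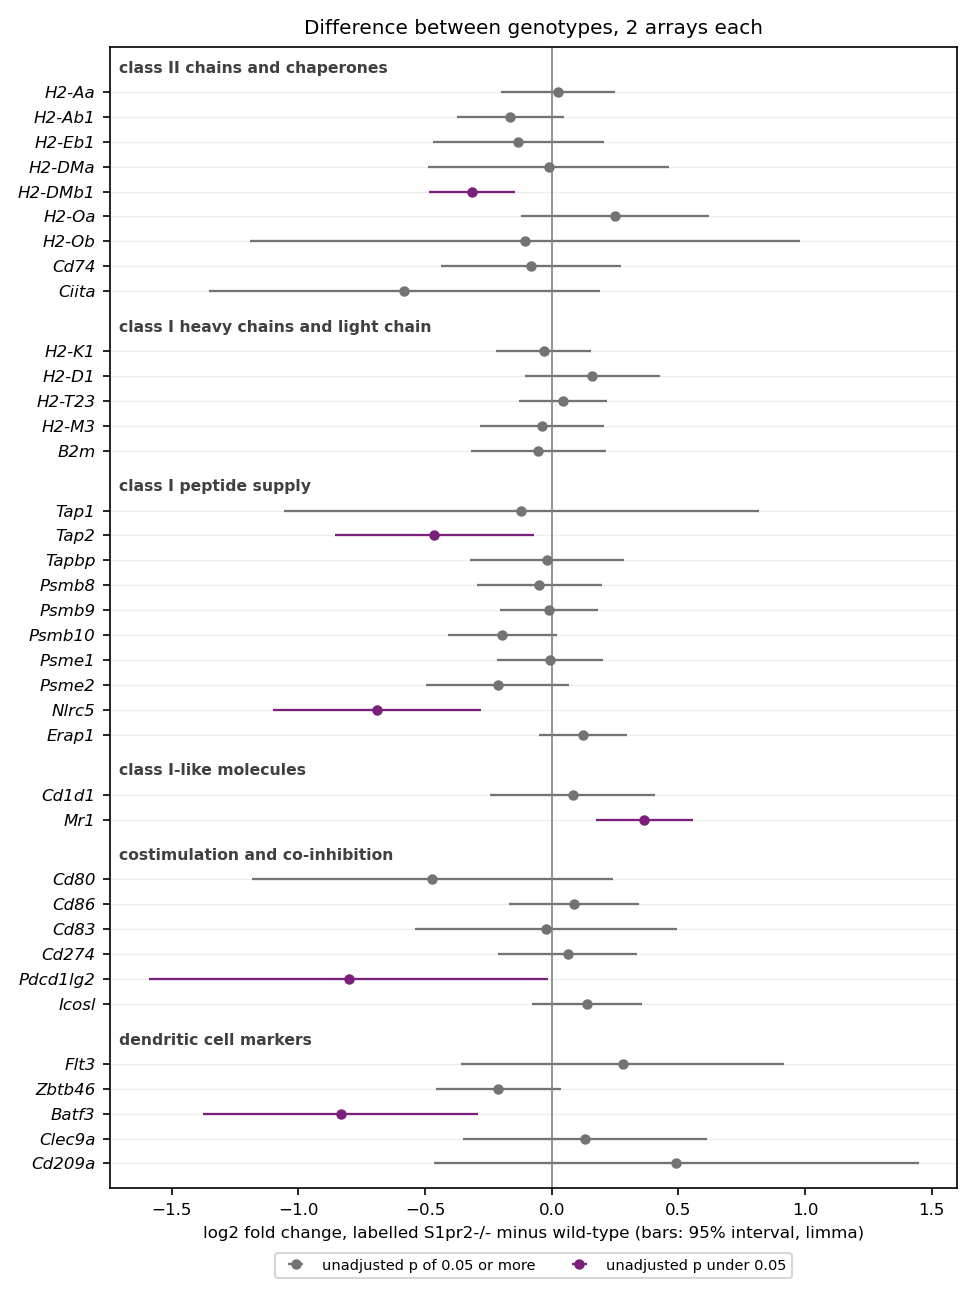
Log2 fold change of each member (S1pr2-/- by label minus wild-type, x axis) with its 95% interval from limma as a bar, grouped by role, 2 arrays for each genotype. Purple marks the 6 members with an unadjusted p under 0.05. Of these, 5 lie left of 0 and Mr1 lies to the right.

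Of the class I-like molecules, Mr1, which shows vitamin B metabolites of microbes to MAIT cells, was the only member higher at an unadjusted p under 0.05. It read -0.11 and -0.10 in wild-type and 0.31 and 0.22 under the S1pr2-/- label, 1.29-fold higher on the latter (log2 difference 0.37 ± 0.06, SE; limma, unadjusted p = 0.0081, adjusted p = 0.509). The groups were separated by a step wider than the gap within either genotype. Cd1d1, which shows lipids to NKT cells, read 2.40 and 2.22 against 2.47 and 2.32, overlapping, with a difference of 0.08.

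Cd80 and Cd86, ligands of the B7 family, both engage CD28 and CTLA-4 on T cells. Their differences had opposite signs. Cd80 read 2.45 and 2.32 in wild-type and 1.63 and 2.20 under the S1pr2-/- label, with a difference of -0.47 (95% interval -1.19 to 0.24; limma, unadjusted p = 0.13). Its dimmer probe gave -0.30 (unadjusted p = 0.0489). Cd86 read 0.83 and 0.83 against 0.998 and 0.83, a difference of 0.09 (95% interval -0.17 to 0.34). The intervals of Cd80 and Cd86 overlapped, and the difference between these genes was not tested.

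The PD-1 ligands, Cd274 and Pdcd1lg2, also had differences of opposite sign. Their intervals overlapped (that of Pdcd1lg2 ran from -1.59 to -0.01), and the difference between these genes was not tested. Cd274, which encodes PD-L1, read 3.54 and 3.37 against 3.56 and 3.47, a difference of 0.06 (95% interval -0.21 to 0.34). Pdcd1lg2, which encodes PD-L2 and is known as a gene of alternatively activated macrophages, read 0.09 and 0.73 in wild-type and -0.46 and -0.32 under the S1pr2-/- label. It was 1.74-fold lower on the latter (log2 difference -0.80 ± 0.26, SE; limma, unadjusted p = 0.0479, adjusted p = 0.521), but the wild-type arrays themselves were 0.64 apart. The unadjusted p in limma was 0.198 without the first S1pr2-/- array and 0.152 without the second.

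Cd83, a marker of mature dendritic cells, overlapped at 1.68 and 2.04 against 1.73 and 1.94. Icosl, the ligand of ICOS, read 1.27 and 1.20 against 1.33 and 1.43, higher by 0.14 (95% interval -0.08 to 0.36). Of 11 other costimulatory or checkpoint ligands tested of a list of 13, 0 had an unadjusted p under 0.05, and the median was -0.01. Over all genes, 5.95% were lower and 4.55% higher at that threshold. The largest differences in that list were -0.44 for Cd40, which receives CD4 T cell help, and -0.41 for Cd70.

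The receptors of these ligands on T cells lay lower in the means. Of 4 tested of a list of 5, an unadjusted p under 0.05 marked 2 as lower (5.95% of all genes were) and 0 as higher, and the median was -0.89. Cd28 read -0.60 and -0.22 in wild-type and -1.15 and -1.41 under the S1pr2-/- label. Ctla4 read -3.97 and -4.17 against -4.90 and -5.64, and Icos read 0.62 and 1.16 against 0.36 and -0.41. These 3 did not overlap between genotypes, beside 21.9% of all genes that lay below, with 1.83-fold, 2.3-fold and 1.89-fold lower means and adjusted p-values of 0.509, 0.51 and 0.546 in limma. The fourth, Pdcd1, overlapped at -1.35 and -0.49 against -0.54 and -1.41, a difference of -0.06. Markers of T cells had a smaller median, -0.35: all 11 of a fixed list were lower in the mean. Of these, 5 were lower on both arrays labelled S1pr2-/-, beside 21.9% of all genes, and 6 overlapped. The summed level of the 11 was 64.4 and 73 times the 75th percentile in wild-type and 55.2 and 56.1 under the S1pr2-/- label. In the RNA of mixed cells, fewer cells of a type and less RNA in each cell cannot be told apart.

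The dendritic cell markers did not share a direction. Batf3, a transcription factor needed for the cross-presenting dendritic cell and also made in activated T cells, had the largest difference of all members. It read 0.75 and 1.18 in wild-type and 0.17 and 0.09 under the S1pr2-/- label, 1.78-fold lower on the latter (log2 difference -0.83 ± 0.18, SE; limma, unadjusted p = 0.0152, adjusted p = 0.509). The arrays did not overlap, and the unadjusted p in limma was 0.0791 without the first S1pr2-/- array and 0.094 without the second. The part of T cells in it was not tested.

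The other markers gave smaller differences. Clec9a, the dead-cell receptor of the cross-presenting subset, read -2.05 and -2.26 against -1.86 and -2.19, overlapping, with a difference of 0.13 (95% interval -0.35 to 0.61). Flt3, the growth factor receptor of the dendritic cell lineage, read -0.81 and -1.004 against -0.39 and -0.87, a difference of 0.28 (95% interval -0.36 to 0.92). Zbtb46, a transcription factor of conventional dendritic cells, read -4.56 and -4.72 against -4.85 and -4.85, a difference of -0.21 (95% interval -0.46 to 0.04), and its other probe lay at the floor of 0.01 on all 4 arrays. Cd209a, a lectin of monocyte-derived and type 2 dendritic cells, read -1.19 and -0.51 against -0.15 and -0.56, with an interval from -0.46 to 1.45. These 4 intervals left out the value of Batf3, and whether each gene differed from Batf3 was not tested.

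A longer list of dendritic cell genes did not share a direction either. Of 22 tested of 23, 2 were lower and 2 higher at an unadjusted p under 0.05 (9.09% each way, beside 5.95% and 4.55% of all genes), with a median of -0.06. Within 0.2 of 0 were 10 (45.5%, beside 70.7% of all genes). On both arrays labelled S1pr2-/-, 7 were lower and 6 higher, beside 21.9% and 22.2% of all genes. Ccr7, the receptor that guides mature dendritic cells to lymph nodes and that T cells also carry, read 3.26 and 3.60 in wild-type and 2.94 and 2.99 under the S1pr2-/- label. Fscn1, the actin bundler of mature dendritic cells, read -2.15 and -2.10 against -2.32 and -2.38. These were the lower ones, by 1.39-fold and 1.17-fold, with an adjusted p of 0.518 and 0.515 in limma.

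Cadm1, an adhesion molecule of the cross-presenting subset, read -3.24 and -2.59 against -2.19 and -1.92, and was 1.82-fold higher. Ly75, an antigen uptake receptor also known as DEC-205, read -2.88 and -2.86 against -2.69 and -2.58, and was 1.17-fold higher. Cadm1 and Batf3, both genes of the cross-presenting subset, thus read in opposite directions. Irf4, a transcription factor of type 2 dendritic cells, T cells and alternatively activated macrophages, read -1.02 and -0.38 against -1.43 and -1.54 (log2 difference -0.78 ± 0.26, SE; limma, unadjusted p = 0.0509, adjusted p = 0.521).

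The interferon-gamma pathway, which is known to raise much of this machinery, had a median of -0.39 over 13 genes tested of 14, and 9 of the 13 were lower on both arrays labelled S1pr2-/-, beside 21.9% of all genes. At an unadjusted p under 0.05, 3 were lower (23.1%, beside 5.95% of all genes) and 0 higher. The list was not uniform: 2 genes, Cxcl9 and Ifngr2, were higher on both arrays labelled S1pr2-/-, by 0.19 and 0.10, beside 22.2% of all genes. Irf1, a transcription factor that interferon-gamma induces, read 3.27 and 3.57 in wild-type and 2.995 and 2.94 under the S1pr2-/- label. Gbp5 read 0.10 and 0.19 against -0.18 and -0.50, and Gbp6 read -1.11 and -1.33 against -1.79 and -1.81, both guanylate-binding proteins that interferons induce. These were 1.37-fold, 1.4-fold and 1.49-fold lower, with adjusted p-values of 0.516, 0.516 and 0.509 in limma.

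Ifng itself, made by T and NK cells, read -2.33 and -0.90 in wild-type and -3.02 and -2.87 under the S1pr2-/- label. The groups did not overlap, but the wild-type arrays were 1.44 apart, and the difference of -1.33 ± 0.57 (SE) had an unadjusted p of 0.0922 in limma. Cxcl10, a chemokine that interferons induce, read 0.51 and 0.71 against -0.22 and 0.25. Of the 26 class I, class I-like and class II members, 7 were lower on both arrays labelled S1pr2-/- (21.9% of all genes were). Another 5 were higher on both (22.2% of all genes were), and 14 overlapped. The lower ones were Nlrc5, Tap2, Ciita, H2-DMb1 (-0.31), Psme2 (-0.21), Psmb10 (-0.20) and H2-Ab1 (-0.16). Psmb8 and Psmb9, which interferon-gamma is also known to raise, overlapped, at -0.05 and -0.01. Tap1, which it is known to raise too, was at -0.12, but its interval of -1.06 to 0.82 was too wide to tell a change from none. No link between the genes was tested.

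**Figure D3:**
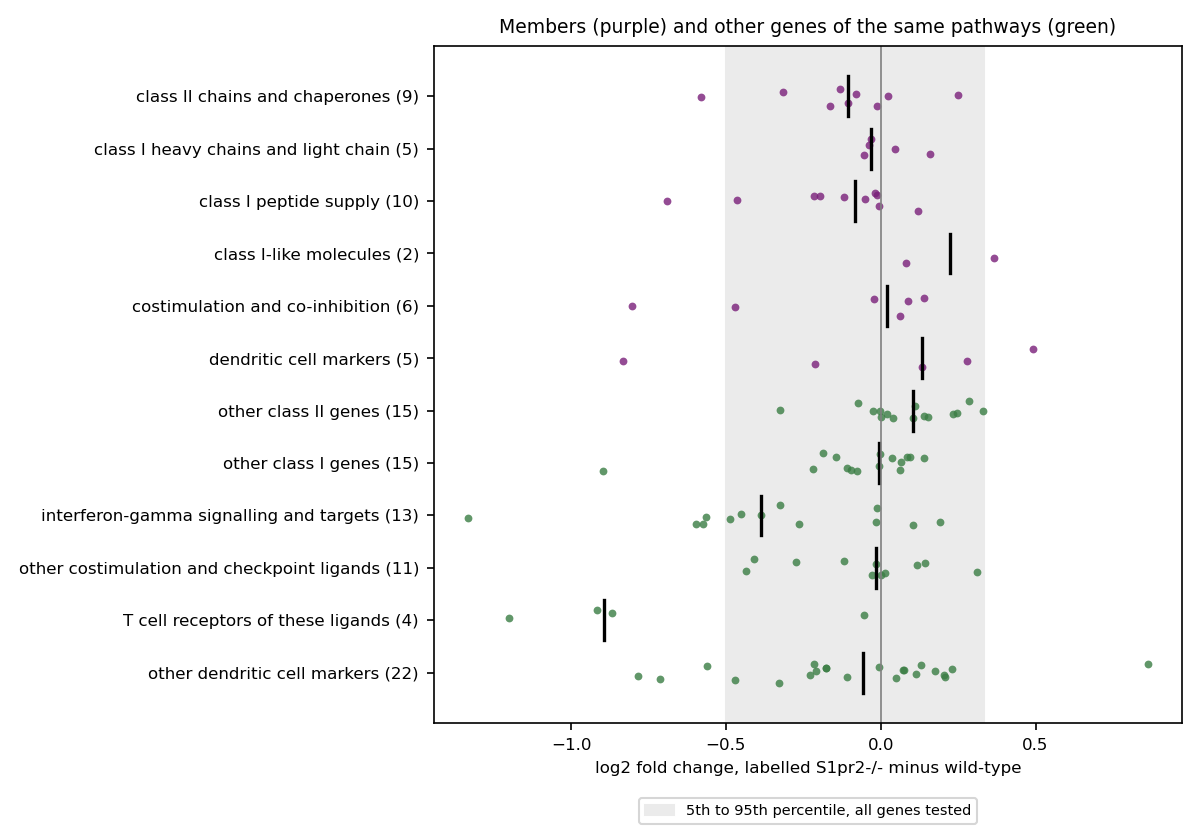
Log2 fold change (S1pr2-/- by label minus wild-type, x axis) of each tested gene in the 6 groups of members (purple) and in 6 lists of other genes of the same pathways (green), with the number tested in brackets, the list's median as a black line and the 5th to 95th percentile of all 15422 genes (-0.50 to 0.33) shaded. The interferon-gamma list and the T cell receptors have medians of -0.39 and -0.89, and the medians of the member groups lie between -0.11 and 0.22.

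Levels of other cells' genes were read beside these values. The 16 alveolar macrophage markers were all above background on all 4 arrays, and their summed level was 1187 and 1291 times the 75th percentile in wild-type and 1175 and 1274 under the S1pr2-/- label. The brightest of them, Chil3, differed by -0.03, and the largest difference, for the lipid carrier Fabp4, was 0.58. Monocyte-derived macrophage markers summed to 285 and 197 against 303 and 230, with Csf1r at -0.09 and Cx3cr1 at 0.67. Neither sum was separated between genotypes. Of the 11 monocyte-derived markers, 9 were higher in the mean and 2 lower (median 0.28). The 4 that were higher on both arrays, beside 22.2% of all genes, were Cx3cr1, C1qa, C1qb and C1qc. Apoe, a bright gene of that sum, read 6.16 and 3.74 in wild-type and 6.04 and 5.14 under the S1pr2-/- label.

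Eosinophil markers were separated between genotypes, at 2.54 and 7.95 against 0.121 and 0.209, 31.8-fold lower on the arrays labelled S1pr2-/-. All 5 were lower on both, beside 21.9% of all genes (Prg2 by -5.32, Gata1 by -5.58). The sums of neutrophil markers were separated too, at 85.8 and 96.4 against 69.5 and 63.2, as were those of the T cell markers given above. Csf3r, the brightest neutrophil marker, differed by -0.28 and Retnlg by -4.81, and Ngp was not well above background. Of the 8 neutrophil markers tested, 6 were lower in the mean, 5 of them on both arrays (21.9% of all genes were). The other 2, S100a8 and Ltf, were higher, by 0.25 and 0.36, and the median was -0.30. NK cell markers summed to 7.49 and 14 against 9.39 and 7.12, with Nkg7 at -0.05 and Eomes at -1.02. In the mean 4 of the 8 were lower and 4 higher (median -0.01). Epithelial markers summed to 30.5 and 33.6 against 24.5 and 40.3, with Scgb1a1, the brightest, at 0.23 and Cdh1 at -0.50. In the mean 7 of the 8 were lower, 6 of them on both arrays (21.9% of all genes were), with a median of -0.34. Of the T cell markers, the brightest, Cd2, differed by -0.22 and the largest difference was that of Lck, -0.77. The brightest B cell marker, Blnk, differed by 0.16. Of the 9 B cell markers tested, 6 were lower in the mean and 3 higher (median -0.66), and all 9 overlapped between genotypes. The part of these cells in the values of Nlrc5, Tap2, Pdcd1lg2, Batf3 and Irf4 was not tested.

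**Figure D4:**
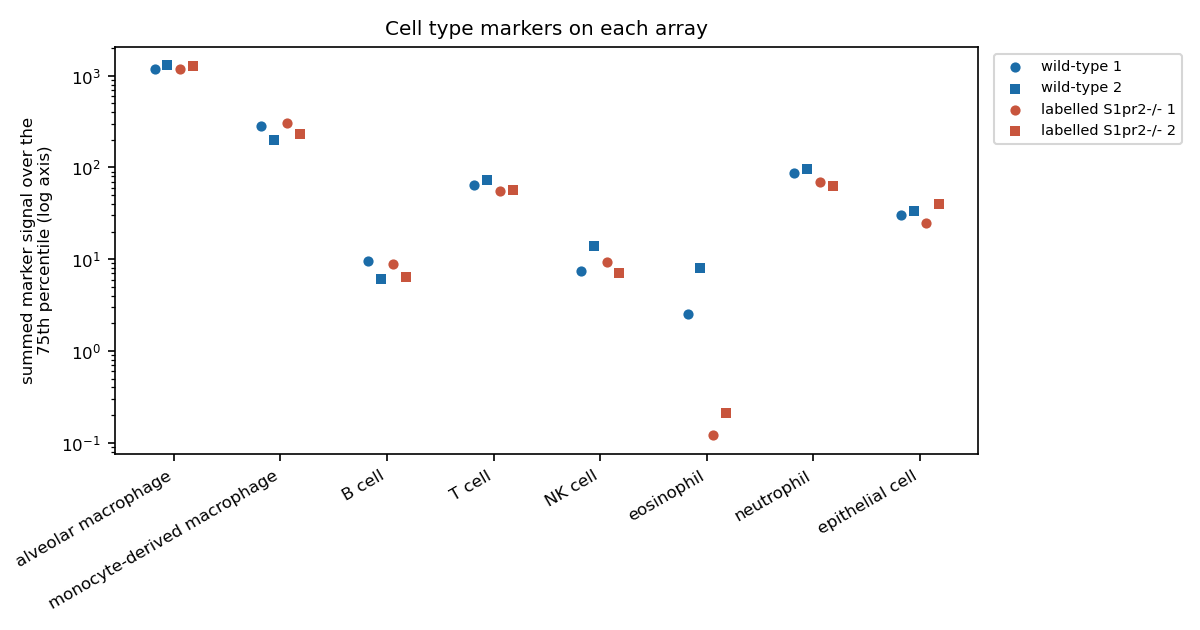
Summed signal of 8 lists of cell type markers on each array, in multiples of the array's 75th percentile (y axis, log scale). Blue points are wild-type and red points S1pr2-/- by label, circles replicate 1 and squares replicate 2. The alveolar macrophage sums lie between 1175 and 1291, and the eosinophil sums of the arrays labelled S1pr2-/- (0.121 and 0.209) lie below those of the wild-type arrays (2.54 and 7.95).

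Where a member had several tested probes, they were compared. Of 10 such members, 8 had probes of one sign or with a value of 0, and 2, H2-K1 and H2-Ob, had probes of opposite sign, with each of those values within 0.11 of 0. With 2 arrays for each genotype, an exact permutation test of a single gene cannot give a two-sided p under 0.333, so the p-values above rest on the spread that limma shares across probes. Nothing in the labels ties the arrays to separate animals beyond the statement of 2 independent experiments.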

How the data were processed

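The authors hybridized Cy3-labelled cRNA from 200 ng of BALF cell RNA to one-color 4x44k arrays, and deposited a spot-level intensity file per array and, in a separate table, normalized log2 values. Per the labels Feature Extraction 10.7.3.1 was used, while the file headers name 11.0.1.1. The deposited intensity used here was the processed signal, with the local background already corrected. Its ratio to the 75th percentile of the array (2489 to 2817 intensity units) was floored at 0.01 and taken to log2, in place of a floor set before scaling. Outlier-flagged spots (115 to 273 an array) were left out, no spot was saturated, and spots of a probe were averaged. Probes well above background on both arrays of a genotype and measured on all 4 were tested (27159 of 39429) with limma 3.58.1 (R 4.3.3, lmFit and eBayes, Benjamini-Hochberg adjustment), a design tested on simulated data. Intervals are 95%. Only the number of arrays and the signal over background bear on precision, since arrays have no read depth. Genes were named through accessions in a RefSeq table of GRCm38.p6 (69.6% of probes), and no array coordinates are given. The level of one probe is not set against that of another.

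All 4 samples were grouped by the genotype in their labels, which share replicate numbers. Same-numbered arrays deviated together with a correlation of 0.187 over 2 pairs, so no pairing was used. Members and lists were chosen with earlier results of these data known, and the X box core was chosen after the promoter letters were read. Named were all members, S1pr2, of each pathway list the genes with an unadjusted p under 0.05 and the 2 largest differences, and of each marker list the brightest gene and the largest difference, except 1 marker gene that is not reported here. The promoters of Tap1 and Psmb9 overlap and were printed once. The alternatives tried were other normalizations and background corrections (normexp, offset 50, on median signals), the deposited table, other filters, the floor, the outlier flags, a trended variance, the methods' t-test, a replicate block, the mean over a gene's probes and each array left out.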

Additional observations from a re-analysis of the deposited data

How the results depend on the processing

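The precision here is limited by 2 arrays for each genotype and, for dim probes, by the signal over background. No member reached an adjusted p under 0.05 in any setting (the smallest was 0.249), and 21 of 37 members kept their sign under all 12 alternatives that used all arrays and with each array left out; 32 did so under the former alone and 22 under the latter alone. The median of all genes moved by at most 0.03 under any scaling. Probes called numbered 2 under normexp and 0 under every other setting. Lower members at an unadjusted p under 0.05 numbered 5, but 3 (and 2 higher) with the percentile taken over detected probes or with no filter on dim probes, as Tap2 and Pdcd1lg2 moved past the threshold, 2 (and 2 higher) by the methods' t-test, and 3 (and 0 higher) with a fold over 1.5. They numbered 7 under normexp (Ciita and Psmb10 added) and with a trended variance (H2-Ab1 and Psmb10 added). With a replicate block they numbered 6, and 1 was higher, with 0 probes called, so the pairing by number changed little; Ciita was the gene added (unadjusted p = 0.0349). With each array left out, where the lone array of a genotype is assumed to vary like the others, they numbered 3 to 4 (higher: 1 to 2), and members on one side of all remaining arrays numbered 13 to 19 below and 10 to 14 above, from fewer arrays. Why the other counts moved was not tested.

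The median of the class I chains was 0.023 under quantile normalization and 0.014 with the mean over a gene's probes, in place of -0.03. With each array left out, medians ran from -0.059 to 0.015 over all members, -0.20 to -0.057 for class II, -0.053 to 0.036 for the class I chains, -0.14 to 0.022 for peptide supply and -0.057 to 0.034 for costimulation. Under quantile normalization H2-K1 was 0.023, B2m 0.0093, Tapbp 0.00019 and Psmb9 0.0014, each with a turned sign. So were Psme1 at 0.0019 with the percentile over detected probes and H2-K1 at 0.014 with the mean over its probes. With each array left out, signs turned within the ranges -0.041 to 0.090 for H2-Aa, -0.20 to 0.18 for H2-DMa, -0.47 to 0.26 for H2-Ob, -0.21 to 0.050 for Cd74, -0.095 to 0.017 for H2-M3, -0.14 to 0.036 for B2m, -0.46 to 0.23 for Tap1, -0.11 to 0.070 for Tapbp, -0.13 to 0.029 for Psmb8, -0.047 to 0.026 for Psmb9, -0.057 to 0.043 for Psme1, -0.011 to 0.18 for Cd1d1, -0.20 to 0.16 for Cd83, -0.019 to 0.15 for Cd274 and -0.030 to 0.29 for Clec9a.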
